A study of Mus musculus with 6 samples.

Results

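The pi-Zmat3 and pi-Foxo3 loci are 2 of the 214 piRNA genes that gave reads in small RNA libraries of mouse fetal germ cells. They were taken by name: a read belongs to one of them when every place it maps to lies on transcripts of that piRNA gene, and its copies count once per library. The libraries came from purified male primordial germ cells of E13.5 embryos. The 3 control libraries came from untreated cells and the 3 IR libraries from cells exposed to ionizing radiation. The radiation dose, the time of collection and the mouse strain are not stated in the labels, which number the replicates but do not say that they came from separate animals; so the spread between libraries may be technical.

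piRNAs are small RNAs that guide PIWI proteins, and in the germ line they silence transposons. Their precursors are long transcripts, some of them mRNAs of ordinary genes, and primary piRNAs often begin with U. Zmat3, the host of pi-Zmat3, is a direct target of the DNA damage regulator p53 and encodes a zinc finger protein that binds RNA. Foxo3, the host of pi-Foxo3, encodes a forkhead transcription factor that is held in the cytoplasm when AKT phosphorylates it. In the nucleus it acts on genes of cell cycle arrest, cell death and oxidative stress, and in the ovary it keeps resting follicles dormant.

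In the mm10 build Zmat3 (ENSMUSG00000027663.12) lies on the minus strand, chr3:32334792-32366014, and Foxo3 (ENSMUSG00000048756.11) on the minus strand, chr10:42181841-42276755. Reads were placed on the longest annotated mRNAs, Zmat3-201 of 7797 nt and 6 exons and Foxo3-203 of 6848 nt and 4 exons. All 45 pi-Zmat3 sense entries that matched Zmat3-201 letter for letter lay at the same shift of 13 nt from their deposited positions. All 62 such pi-Foxo3 entries lay at a shift of -3 nt.

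Almost every read was a sequence of its own. The 83 pi-Zmat3 reads held 82 distinct sequences and the 110 pi-Foxo3 reads held 107, and 0 of these sequences occurred in more than 1 library. The repeated sequences of at most 30 nt are shown because no other short sequence of these loci had more than 1 copy. Each had 2 copies, in a single IR library, and matched the 3′ UTR. They lie at chr3:32338357-32338382 and chr10:42184722-42184744.
pi-Zmat3, IR replicate 2: actttgctggtctgagttgatctgtg
pi-Foxo3, IR replicate 1: gcttgagttctcgccattgcctg

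Reads of different libraries also overlapped, and for each locus the pair with the longest overlap among reads of at most 30 nt is shown. In pi-Zmat3, 2 reads of 23 nt from different IR libraries shared both ends (chr3:32339898-32339920, 3′ UTR). In pi-Foxo3, a 28-nt and a 25-nt read of different IR libraries shared their 3′ end (chr10:42182792-42182819 and chr10:42182792-42182816, 3′ UTR). Capitals mark the letter that differs from the mRNA in the first pair, and the overlap in the second.
pi-Zmat3, IR replicate 1: acggtagagctatgtggctaagC
pi-Zmat3, IR replicate 2: acggtagagctatgtggctaagt
pi-Foxo3, IR replicate 3: atcATGATTAGGTGGACGAGTGTTGAGT
pi-Foxo3, IR replicate 2: ATGATTAGGTGGACGAGTGTTGAGT

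Reads that differed from each other or from the mRNA in the last base were found in both loci. The next pairs, from the Foxo3 coding sequence, were chosen after their values were seen, to show this. Each pair shares both ends within 1 library, at chr10:42197367-42197394 for IR replicate 3 and chr10:42196988-42197016 for control replicate 3. Capitals mark the letter that differs from the mRNA.
pi-Foxo3, IR replicate 3, matching: aatctgaatgatgggctggccgagaacc
pi-Foxo3, IR replicate 3, differing: aatctgaatgatgggctggccgagaacT
pi-Foxo3, control replicate 3, matching: cagaatgcccgccggaacgtgatgcttcg
pi-Foxo3, control replicate 3, differing: cagaatgcccgccggaacgtgatgcttcA

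The files hold only reads on cluster transcripts, between 7788 and 11280 per library, of which 5889 to 9017 lay on 1 piRNA gene. In the library with the fewest, 3 reads made up 0.0509% of the latter. A level is therefore a share of such reads, not an abundance in the cell, and in bulk samples fewer cells of a type and less RNA per cell cannot be told apart. No pair of libraries within a group agreed within counting error (chi-square test over loci, p at most 1.08e-08), so none was treated as a library deposited more than once. That test covers counting error only and does not tell separate samples from separate preparations of 1 sample.

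Both loci were selected on their fold change and adjusted p between IR and control, so the levels are a description and are given without a test. pi-Zmat3 had 6, 3 and 6 reads in control replicates 1 to 3 and 26, 24 and 18 in the IR replicates. As CPM (reads on 1 piRNA gene scaled to a common effective library size), these were 794, 546 and 781 in control and 3047, 2776 and 3091 in IR. The lowest IR library lay far above the highest control library, and the libraries of each group lay close together.

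In control replicates 1 to 3 pi-Foxo3 had 14, 4 and 12 reads, and in the IR replicates 27, 31 and 22. Its CPM values were 1854, 728 and 1563 in control and 3164, 3585 and 3777 in IR. The groups did not overlap here either, but the control libraries were spread out, with control replicate 2 the lowest. Of the 103 piRNA genes tested, 13.6% had every IR library above every control library in CPM.

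**Figure D1:**
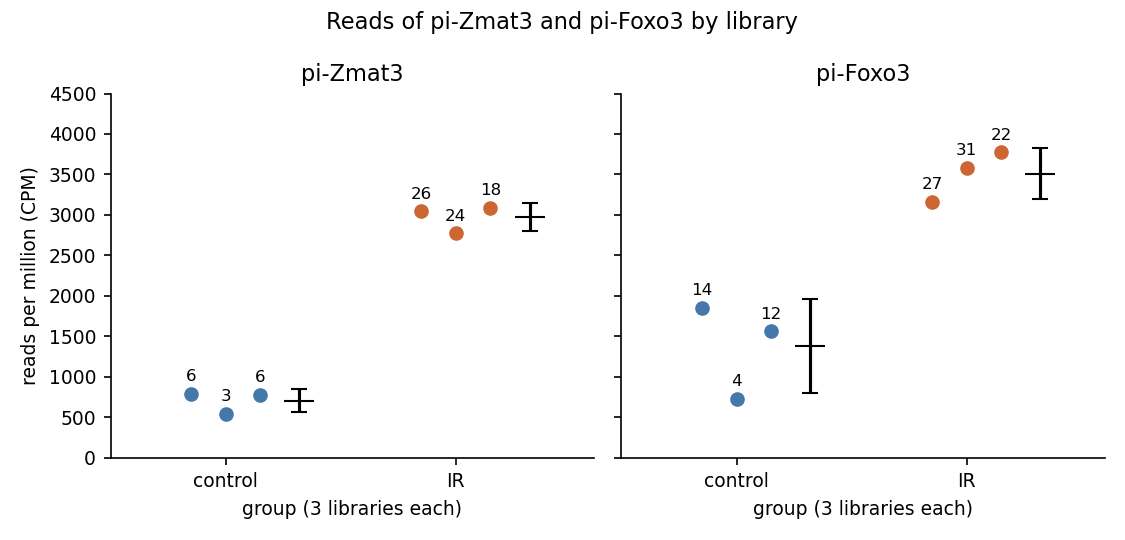
Each point is 1 library, with CPM on the vertical axis and the number of reads printed above it; the bar beside each group is the mean and SD of its 3 libraries. For pi-Zmat3 the IR libraries sit from 2776 to 3091 CPM and the control libraries from 546 to 794, and for pi-Foxo3 control replicate 2 is the lowest point.

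In the edgeR fit over all 103 tested piRNA genes the log2 fold change was 2.01 (SE 0.35) for pi-Zmat3 and 1.28 (SE 0.34) for pi-Foxo3. Both passed the filter on low counts through the IR libraries, where they are high. The control libraries, with as few as 3 reads of pi-Zmat3 and 4 of pi-Foxo3, did not meet it by themselves. Both loci were among the 4 called higher in IR (edgeR, adjusted p under 0.05), 3.88% of those tested. That is how they were selected. Calls in either direction made up 7.77%. The median log2 fold change over all tested loci was 0.042. The value of pi-Zmat3 was the highest of all and that of pi-Foxo3 came after pi-Zmat3 and pi-Tfcp2l1.

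The pi-Foxo3 value passed the same threshold in 7 of 18 alternative settings, against 16 of 19 for pi-Zmat3. The loci were selected at this threshold, so these counts only describe how the selection depends on the setting. The settings that pi-Zmat3 did not pass were the fits to reads of a single size class. pi-Foxo3 did not pass without control replicate 2, where the log2 fold change was 0.99. It did not pass either when an IR library was left out, at 1.34 for replicate 1, 1.19 for replicate 2 and 1.19 for replicate 3, and its direction was kept in each. With all libraries kept, pi-Foxo3 did not pass with DESeq2 (1.245), with distinct sequences counted once (1.18) or with a filter of at least 10 reads (1.22). The same held for the replicate block and for reads of a single size class.

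**Figure D2:**
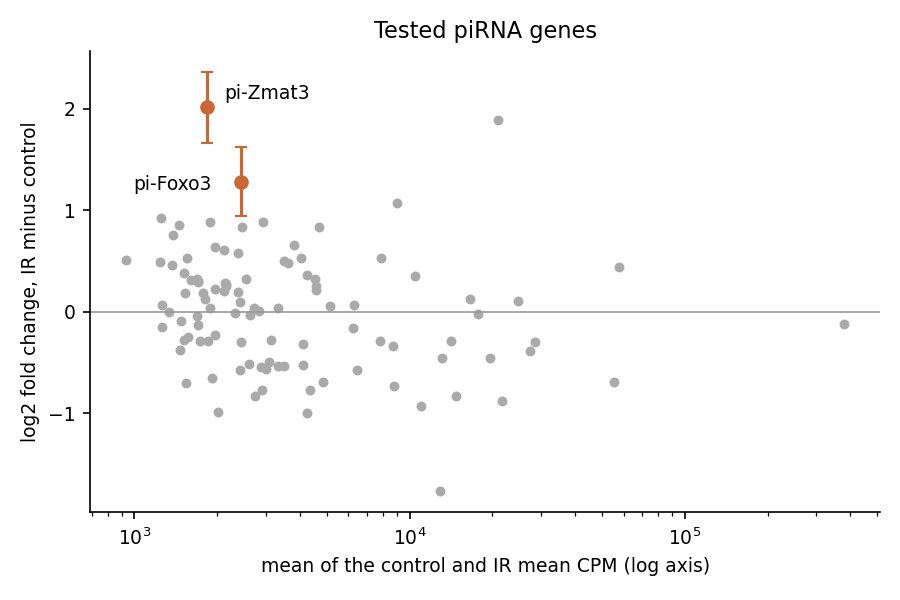
Each point is 1 of the 103 tested piRNA genes, with its mean CPM on a log axis and its log2 fold change (IR minus control) on the vertical axis; bars on the named loci are SE. pi-Zmat3 stands highest at 2.01 and pi-Foxo3 is at 1.28.

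Per kilobase of mRNA, pi-Zmat3 had 90.7 ± 18.0 CPM in control and 381 ± 21.9 in IR (SD, n = 3). pi-Foxo3 had 202 ± 85.3 CPM per kilobase in control and 512 ± 45.8 in IR. The order of the loci was the same in both groups, with pi-Foxo3 higher per length.

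Reads came almost only from the mRNA strand. In sense there were 5, 2 and 6 pi-Zmat3 reads in control and 25, 24 and 16 in IR. The pi-Foxo3 sense reads numbered 14, 4 and 11 in control and 27, 28 and 19 in IR. In both loci every IR library was above every control library in sense CPM, which held for 8.74% of the tested piRNA genes. Because the loci were chosen for higher levels in IR, this follows from that choice and is not separate support. The log2 fold change of sense reads, fitted with the strands as separate features, was 2.23 (SE 0.31) for pi-Zmat3 and 1.29 (SE 0.33) for pi-Foxo3.

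Antisense reads were few. pi-Zmat3 had 1, 1 and 0 in control and 1, 0 and 2 in IR, all in the 3′ UTR and from 20 to 33 nt long. pi-Foxo3 had 0, 0 and 1 in control and 0, 3 and 3 in IR. The groups overlapped in both loci, while 16.3% of the piRNA genes with antisense reads had every IR library above every control library. Among the pi-Foxo3 antisense reads were 2 overlapping reads of 84 and 85 nt from IR replicate 2, longer than the 18 to 50 nt size selection named in the protocol.

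Ping-pong amplification of piRNAs leaves reads of opposite strands whose 5′ ends overlap by 10 nt. Over all libraries 4 pairs of opposite-strand reads overlapped in pi-Zmat3 and 3 in pi-Foxo3, and 0 of them overlapped by 10 nt. With 5 and 7 antisense reads in all, such pairs were not detectable at this depth.

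The sense reads lay along the whole mRNA. In pi-Zmat3 they reached from nucleotide 17 to nucleotide 7786 and covered 24.9% of it. In pi-Foxo3 they reached from nucleotide 70 to nucleotide 6778 and covered 31.5%. The median start lay near the middle in both groups, at 50.3% of the length in control and in IR for pi-Zmat3, and at 52.2% and 52.7% for pi-Foxo3.

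The reads divided between the 3′ UTR and the coding sequence much as length does. The 3′ UTR, 85.8% of Zmat3-201, held 85.9% of the pi-Zmat3 sense reads, and the coding sequence, 11.2% of it, held 10.3%. In pi-Foxo3 the 3′ UTR, 65.6% of Foxo3-203, held 67.0% of the sense reads, and the coding sequence, 29.5%, held 32.04%. Reads per kilobase, all libraries summed, were 10.01 for the 3′ UTR and 9.16 for the coding part of pi-Zmat3, and 15.4 and 16.3 for those of pi-Foxo3. The 5′ UTR, 2.98% of Zmat3-201 and 4.95% of Foxo3-203, held 3 and 1 sense reads, or 3.85% and 0.97%. In pi-Foxo3 that share was lower than the share of length, but it rests on 1 read and was not tested.

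**Figure D3:**
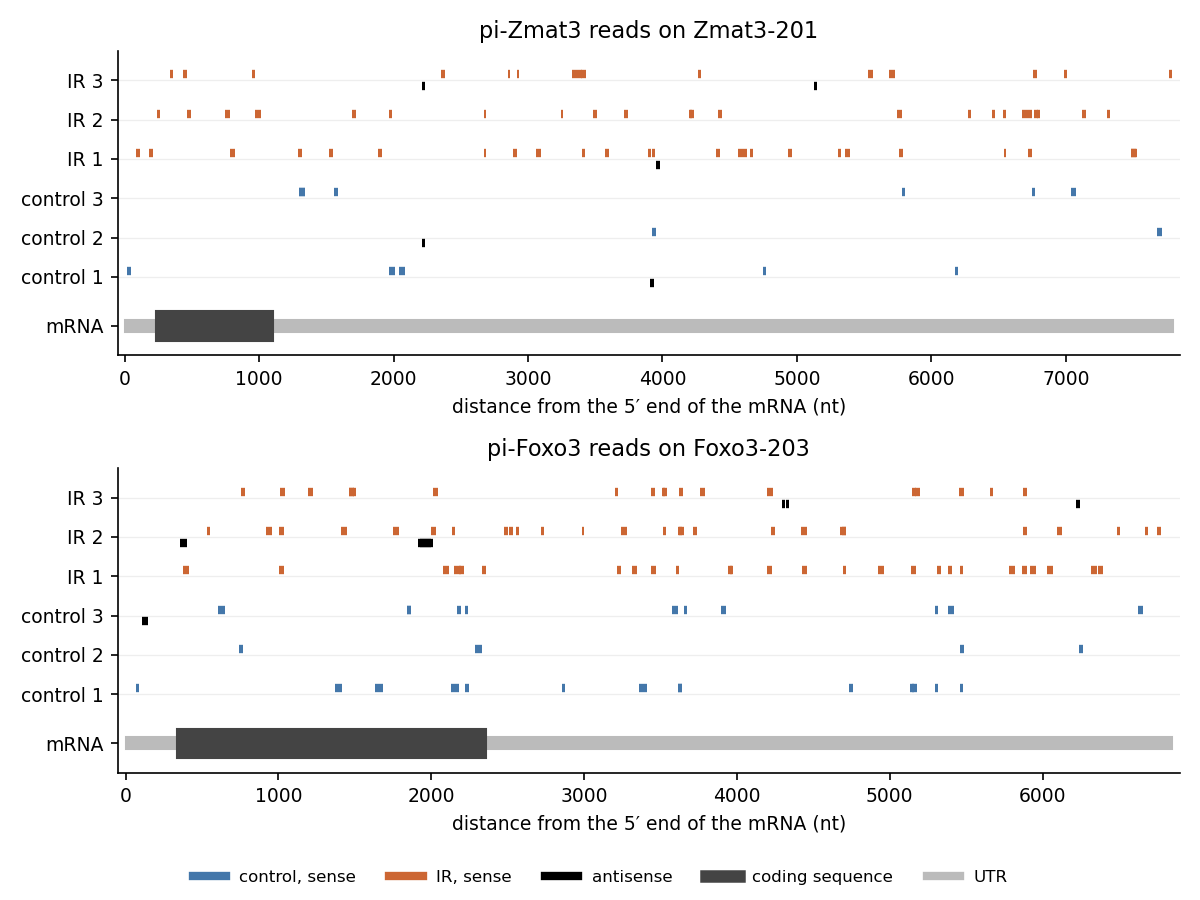
Each short bar is a read at its distance from the 5′ end of the mRNA, in nucleotides, in 1 row per library; sense reads are coloured by group and antisense reads are black below the row. The lowest row shows the coding sequence as a thick box and the UTRs as a thin one. Reads are scattered over the length of both mRNAs, and the IR rows hold more of them.

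By group, the coding sequence of Zmat3 held 0 of 15 control reads, which allows a share of up to 20%, and 8 of 68 IR reads, counting both strands. Its 3′ UTR held 5, 3 and 6 reads in control and 23, 20 and 15 in IR. For Foxo3 the coding sequence held 4, 2 and 5 reads in control and 6, 12 and 7 in IR, and the 3′ UTR held 9, 2 and 6 in control and 21, 19 and 15 in IR.

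In windows of 1 kb the IR sum of sense reads exceeded the control sum in each of the 8 windows of Zmat3-201 and the 7 of Foxo3-203. The numbers were closest in the second kilobase of Zmat3-201, with 4 control and 5 IR reads, and farthest apart in the fourth, with 1 and 12. In Foxo3-203 the fourth kilobase held 6 control and 18 IR reads. These sums cover 3 libraries a group and windows of few reads, are not scaled to library size, and were not tested. The loci were chosen for higher levels in IR, so an IR excess in most windows follows from that choice and is not separate support.

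Few reads shared an end. The 78 sense reads of pi-Zmat3 began at 75 different nucleotides and the 103 of pi-Foxo3 at 91, and no start had more than 2 reads. The deepest point of pi-Zmat3 had 3 reads and that of pi-Foxo3 6, at nucleotides 3621 to 3622 in a run of T just before a stretch of repeated GTT in the 3′ UTR. These 6 reads came from 4 libraries. Some of them differ from the mRNA inside the read, as shown by the first of the next reads (chr10:42185051-42185071), where the capital marks the differing letter; the second (chr10:42185045-42185074) matches.
pi-Foxo3, control replicate 1: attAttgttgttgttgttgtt
pi-Foxo3, IR replicate 2: ctcatttttgttgttgttgttgttgtttcc

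Exon junctions were crossed by 1 pi-Zmat3 read and by 2 copies of 1 pi-Foxo3 sequence, all in IR. The pi-Zmat3 read matched the spliced mRNA letter for letter, and the pi-Foxo3 sequence differed from it in 2 bases. The counts of 0 in control allow shares of up to 20% for pi-Zmat3 and 10% for pi-Foxo3, above the IR shares of 1.47% and 2.5%. Reads from the coding sequence were 8 and 36 in all, both strands counted.

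Many reads differed from the annotated mRNA, by 1 or 2 bases at most. Matching reads of pi-Zmat3 numbered 2, 1 and 2 in control and 15, 15 and 11 in IR. Those of pi-Foxo3 numbered 7, 2 and 9 in control and 18, 17 and 12 in IR. In pi-Zmat3, 10 of 15 control reads and 27 of 68 IR reads differed, and in pi-Foxo3 12 of 30 and 33 of 80.

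Of the differing reads, 11 of pi-Zmat3 and 19 of pi-Foxo3 differed in the last base only. Differences limited to the last 3 bases occurred in 7 of 15 pi-Zmat3 reads of the control group and 9 of 68 of the IR group, and for pi-Foxo3 in 6 of 30 and 17 of 80. By library these numbered 4, 0 and 3 in control and 5, 3 and 1 in IR for pi-Zmat3. For pi-Foxo3 they numbered 2, 1 and 3 in control and 5, 7 and 5 in IR. The group shares pool reads of different libraries and were not tested. None of the 83 and 110 reads was an exact sense match to an annotated structured RNA, which allows shares of such matches of up to 3.61% and 2.73%. The annotation held small nuclear, small nucleolar, ribosomal, micro and mitochondrial transfer RNA among others, but not nuclear transfer RNA. Matches with a differing base were not searched for, so the limits do not cover them. A lack of such reads was usual: the median share in the 50 other tested gene-named loci was 0, and 19 of them had a share above 0. Over all reads on 1 piRNA gene the share was 17.9%.

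Read length spanned 20 to 46 nt in pi-Zmat3 and 20 to 85 nt in pi-Foxo3. Reads of 24 to 32 nt, the size of piRNAs, numbered 3, 1 and 2 in control and 10, 11 and 4 in IR for pi-Zmat3. For pi-Foxo3 they numbered 5, 3 and 4 in control and 8, 12 and 14 in IR. Size alone does not tell a piRNA from a fragment of mRNA.

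Shorter reads, of 20 to 23 nt, numbered 1, 1 and 1 in control and 4, 6 and 9 in IR for pi-Zmat3, and 4, 0 and 3 against 7, 6 and 4 for pi-Foxo3. Reads of 33 nt or longer numbered 2, 1 and 3 against 12, 7 and 5 for pi-Zmat3, and 5, 1 and 5 against 12, 13 and 4 for pi-Foxo3. In CPM every IR library was above every control library in all 3 size classes of both loci. Over the tested piRNA genes this held for 15.5% with reads of 20 to 23 nt, 9.71% with 24 to 32 nt and 10.7% with 33 nt or longer. The size classes are parts of the reads on which the loci were chosen, so their separation is not separate support.

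Fitted by size without a filter on low counts, a setting chosen after the data were seen, the log2 fold change of pi-Zmat3 was 2.22 (SE 0.80) for 20 to 23 nt, 2.04 (SE 0.79) for 24 to 32 nt and 1.62 (SE 0.65) for longer reads. For pi-Foxo3 these were 0.92 (SE 0.68), 1.58 (SE 0.63) and 1.05 (SE 0.54). Within each locus the ranges of 1 SE around these values overlapped, and their differences were not tested.

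**Figure D4:**
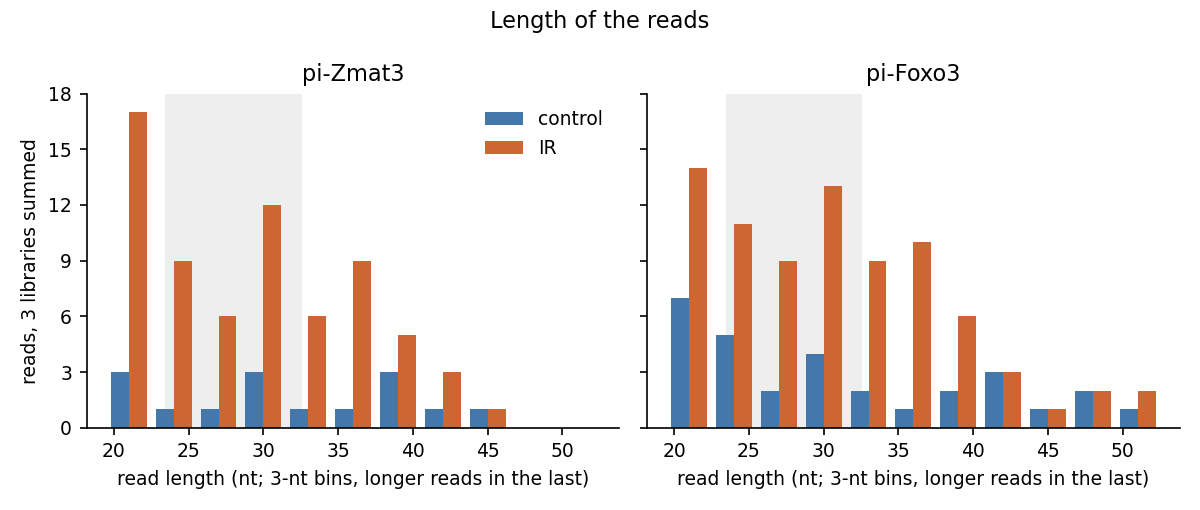
Bars give the number of reads by length in 3-nt bins, summed over the 3 libraries of a group; reads beyond the axis are in the last bin, and the shaded band marks 24 to 32 nt. Reads of both groups spread from 20 nt to beyond 40 nt in pi-Foxo3 and pi-Zmat3, and in the IR libraries the shortest bin is the highest.

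First bases were mixed. Over all libraries U began 38.6% of the pi-Zmat3 reads and 30.9% of the pi-Foxo3 reads, A 32.5% and 25.5%, G 15.7% and 23.6%, and C 13.3% and 20%. Reads that begin with U numbered 2, 2 and 3 in control and 10, 7 and 8 in IR for pi-Zmat3. For pi-Foxo3 they numbered 3, 1 and 2 in control and 9, 8 and 11 in IR. In CPM neither locus overlapped between groups in this class, as for 11.7% of the tested piRNA genes. Reads that begin with C numbered 0, 0 and 1 against 2, 4 and 4 for pi-Zmat3 and 1, 0 and 2 against 4, 12 and 3 for pi-Foxo3, again apart in CPM, as for 5.83%. Reads that begin with A or with G were apart for pi-Zmat3, as for 9.71% and 12.6% of the tested piRNA genes, and overlapped between groups for pi-Foxo3. Classes by first base are also parts of the reads on which the loci were chosen, so separation in them is not separate support.

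Reads with both marks of a primary piRNA, 24 to 32 nt and a first U, were rare. pi-Foxo3 had 0, 0 and 1 in control and 3, 5 and 7 in IR, and pi-Zmat3 had 0, 1 and 1 in control and 4, 2 and 1 in IR. Groups were apart in CPM for pi-Foxo3, as for 10.7% of the tested piRNA genes, and overlapped for pi-Zmat3. Reads with both marks made up 15 of 80 IR reads of pi-Foxo3 and 7 of 68 IR reads of pi-Zmat3. As pi-Foxo3 was chosen for higher levels in IR, the separation is not separate support.

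A at position 10, the mark of secondary piRNAs, was carried by 0, 0 and 1 control reads and 5, 5 and 4 IR reads of pi-Foxo3. In pi-Zmat3 it was carried by 3, 1 and 1 control reads and 4, 5 and 5 IR reads. In CPM both loci were apart between groups in this class, as were 15.5% of the tested piRNA genes. Here too the separation is not separate support, since the loci were chosen for higher levels in IR.

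Strand, size and first base were not used to choose the loci, and were compared with the 50 other tested piRNA genes named after a gene. In each library the share in a locus was set against the mean share of those 50. The 6 differences were tested by exact two-sided sign-flip permutation over the 6 libraries, whose smallest p is 0.03125. Sense reads made up 94.7% ± 6.04 of pi-Foxo3 and 85.3% ± 3.55 of the other genes (SD, n = 6), higher in 6 of 6 libraries (exact p = 0.03125, adjusted over the 6 tests 0.188). For pi-Zmat3 the sense share was 89.2% ± 12.8, higher in 4 of 6 libraries (exact p = 0.562, adjusted 0.675). With all libraries pooled, sense reads made up 93.6% of pi-Foxo3 and 94.0% of pi-Zmat3. The 50 other genes then had a median of 89.6%, and 16 of them lay above pi-Foxo3 and 14 above pi-Zmat3.

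Reads of 24 to 32 nt made up 37.2% ± 9.94 of pi-Zmat3 and 46.0% ± 18.6 of pi-Foxo3, against 31.5% ± 2.43 of the other genes. Each locus was higher in 4 of 6 libraries (exact permutation p = 0.344 and 0.125, adjusted 0.516 and 0.250). A first U was found in 43.7% ± 13.52 of pi-Zmat3 reads, in 28.7% ± 11.8 of pi-Foxo3 reads and in 30.1% ± 2.96 of the others. The pi-Zmat3 share was higher in 5 of 6 libraries (exact permutation p = 0.0625, adjusted 0.188) and the pi-Foxo3 share in 2 of 6 (exact permutation p = 0.719, adjusted 0.719). None of the 6 differences passed an adjusted p of 0.05. A test at the smallest p of 0.03125 adjusts to 0.188 when no other is as low, so no difference could have passed alone, and with as few as 3 reads of a locus in a library these shares are loose.

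**Figure D5:**
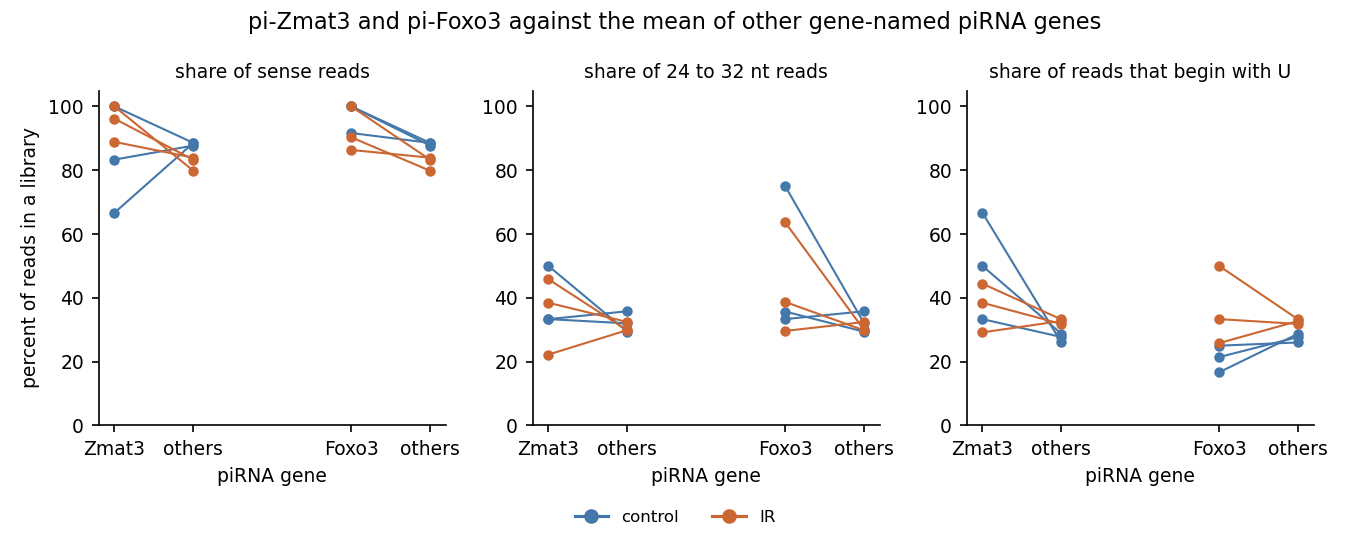
Each line joins, within 1 library, the percent of a locus's reads in a class to the mean percent over the 50 other gene-named piRNA genes; colours mark the group. For pi-Foxo3 the sense share lies above that of the others in 6 of 6 libraries, while the other classes cross.

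With all libraries pooled, 1.01 reads per distinct sequence were found in pi-Zmat3 and 1.03 in pi-Foxo3, against a median of 1.10 and a highest value of 7.67 in the 50 others. Of those, 49 had a higher value than pi-Zmat3 and 45 a higher value than pi-Foxo3. The most copied sequence made up 2.41% of pi-Zmat3 and 1.82% of pi-Foxo3 reads, against a median of 3.17% and a highest value of 36.8%. These values depend on the number of reads, which was 83 and 110 against a median of 103.

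Some reads of these loci also mapped to other piRNA genes and were left out of the counts above. pi-Zmat3 had 3, 1 and 3 of them in control and 3, 2 and 2 in IR. pi-Foxo3 had 0, 0 and 1 in control and 3, 1 and 0 in IR. The groups overlapped for both.

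The piRNA genes whose CPM, on a log2 scale, ran most alike over the 6 libraries were 3-qA2-617 (Pearson r = 0.978), another locus named after a chromosome band (0.950) and pi-Dnmt3a (0.944) for pi-Zmat3. For pi-Foxo3 they were pi-Dnmt3a (0.996), that same other band-named locus (0.993) and a further one (0.945). pi-Zmat3 and pi-Foxo3 had r = 0.935 with each other. The libraries share a group structure and their depth, so these correlations are a description. Dnmt3a encodes a DNA methyltransferase, and its locus had 56 reads.

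No other gene of the listed pathways named a piRNA gene with reads. Of 34 genes of the p53 pathway, among them Cdkn1a and Mdm2, and of 27 of the FOXO pathway, among them Foxo1 and Bcl2l11, Zmat3 and Foxo3 were the members with a piRNA gene that had reads. Of 11 germ cell markers and 8 markers of other cells of the fetal gonad, 0 had one. A gene without a cluster transcript could not have reads in these files, so the labelled cell type could not be checked.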

How the data were processed

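Small RNA of purified primordial germ cells was measured in 6 libraries, 3 control and 3 IR. The deposited counts are copies of each read sequence, listed with strand, number of mapped places and position on piRNA cluster transcripts. The genome build was mm10, per the submitters' processing notes; the aligner, its mismatch setting and any trimming: not given in the sources used here. RNA of 18 to 50 nt was size-selected, per the labels' protocols. The files hold reads on cluster transcripts only, not the library depth.

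The loci and gene lists were chosen with earlier results of these data known. Counts per piRNA gene, from reads on 1 piRNA gene, were fitted with edgeR 4.0.16 under R 4.3.3 (TMM normalization, filterByExpr, quasi-likelihood F-test, Benjamini-Hochberg, threshold 0.05); SE is the log2 fold change over the square root of F. The replicate numbers did not pair the libraries. On simulated counts for this comparison (103 loci, 20 changed in each of 20 draws), the share recovered was 46.5% at 2-fold and 95.5% at 4-fold, and 5.65% of calls were false. The simulated loci shared a common dispersion, no filter was applied, and the shares are over loci of all levels. They do not give the recovery at counts as low as those of pi-Zmat3 and pi-Foxo3. Counting error alone sets the limits given for counts of 0. Positions were placed on GENCODE vM21 mRNAs by the shift of matching reads, and a read belongs to the region of its midpoint. Structured RNA was an exact sense match to that annotation.

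Named loci were the chosen 2, the 3 most alike over libraries, and sequences of at most 30 nt that were repeated or overlapped most between libraries; others are said to be chosen later. Alternatives were DESeq2 1.42.0, file totals, filters, read classes, the replicate block and leaving out each library. Permutation tests used scipy 1.17.1 in Python 3.11.15, and figures matplotlib 3.10.9.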

Additional observations from a re-analysis of the deposited data

How the results depend on the processing

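The pi-Zmat3 log2 fold change moved by more than the replicate SD with reads of 1 mapped place (2.23), with strands apart (2.23), and, chosen after the data were seen, with reads of 20 to 23 nt (2.22) or 33 nt or longer (1.62); it ranged from 1.86 to 2.10 when each library was left out. That of pi-Foxo3 ranged from 0.92 to 1.58 over all alternatives and from 0.99 to 1.53 over left-out libraries. Its reads map to more than 1 transcript, so reads of 1 mapped place gave no value, and neither locus passed the filter on 24 to 32 or 20 to 23 nt reads. The 8 of 103 loci called became 5 of 56 with 1 mapped place, 3 of 98 with distinct sequences and 5 of 103 with the replicate block. With reads of 24 to 32 nt 0 of 28 were called (edgeR, 5 at an unadjusted p under 0.05). Calls numbered 12 of 214 without a filter and 12 of 122 with copies divided by mapped places. Leaving out a library gave 3 to 15 calls: 15 of 112 without control replicate 3 and 4 of 115 without control replicate 2. They were 3, 3 and 5 of 112 when IR replicate 1, 2 or 3 was dropped. With the replicate block the log2 fold changes were 2.03 and 1.32, and pi-Foxo3 did not pass; same-numbered libraries had correlations of -0.167, 0.108 and 0.125. Against pooled reads of the other gene-named loci, differences turned for the pi-Zmat3 sense share (-2.46 points), the pi-Zmat3 share of 24 to 32 nt (-5.87) and the pi-Foxo3 first U share (1.68); the last was 0.585 with all reads, and -4.96 to 0.807 over left-out libraries. The same pooling cut the pi-Foxo3 sense difference from 9.41 to 3.09 points and its 24 to 32 nt difference from 14.5 to 2.94. Leaving out control replicate 2 gave 8.75 for the latter (14.5 with all) and 8.23 for the pi-Zmat3 first U difference (13.6) and 9.01 for its sense difference (3.86); the pi-Zmat3 24 to 32 nt difference (5.66) was 2.66 without control replicate 1 and 3.58 without IR replicate 2, and its sense difference was 2.35 without control replicate 3, and 2.06 or 0.597 when IR replicate 1 or IR replicate 2 was dropped. No composition test passed under any alternative, and with 5 libraries none can reach 0.05. The causes were not tested.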
